A study of Mus musculus with 19 samples.

Results

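Tnfrsf9, the gene of the costimulatory receptor 4-1BB, and 9 other genes of costimulatory or checkpoint molecules (Tnfsf9, Cd40, Cd80, Cd86, Icosl, Cd274, Pdcd1lg2, Cd200r1 and Havcr2) were measured in CD11b+ cells from the brains of mice with and without *PARK7*/DJ-1. These 10 genes of the 56980 in the count table were chosen by name, and all 10 were among the 18739 genes that passed the filter on low counts. Tnfrsf9 heads the list because of its difference between KO and wildtype after LPS, so its values in that contrast are given below as a description, with no test. The other 9 were listed for their function, with earlier results of these data known.

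The study asked how loss of *PARK7*/DJ-1, a protein linked to early-onset Parkinson's disease, alters the microglial reaction to a systemic inflammatory stimulus. Each of the 19 libraries came from 1 mouse. The mice were males aged 3 to 4 months, in 4 groups: 5 KO mice given LPS, 5 wildtype mice given LPS, 5 KO mice given PBS and 4 wildtype mice given PBS. LPS, a bacterial cell wall component that activates Toll-like receptor 4, came from E. coli O55:B5 and was given once intraperitoneally at 4 µg per g of body weight; the PBS groups received the saline vehicle, and all mice were killed after 6 h. The KO allele is a gene trap in Park7, present in every cell of the animal, on a line backcrossed to C57BL/6NCrl, and the wildtype mice were littermates. DNA next to Park7 that was inherited together with the trap cannot be told apart from the trap itself. The cells were isolated with CD11b magnetic beads from brains without olfactory bulb and cerebellum, which takes in microglia and any other CD11b+ myeloid cells present. In such bulk samples, fewer cells of a type and less RNA per cell cannot be told apart.

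A T cell needs a costimulatory signal beside its antigen receptor signal, and antigen-presenting cells supply it through membrane ligands. CD80 and CD86 bind CD28, which promotes activation, and CTLA-4, which restrains it; ICOSL binds ICOS, and 4-1BB ligand (Tnfsf9) binds 4-1BB. PD-L1 (Cd274) and PD-L2 (Pdcd1lg2) bind the checkpoint receptor PD-1, CD40 receives CD40 ligand from helper T cells, and CD200R1 and TIM-3 (Havcr2) are receptors that myeloid cells themselves carry. LPS and interferons are known to raise several of these ligands on myeloid cells.

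Tnfrsf9 (ENSMUSG00000028965) lies on chromosome 4 at 150999019 to 151030559 on the forward strand of GRCm39, directly beside Park7, which lies at 150981579 to 150998903 on the reverse strand. Between the outermost annotated ends of both genes there are 115 bases, with a GC content of 66.1%, and the starts of their canonical transcripts are 18.1 kb apart. The bases between them (chr4:150998904-150999018, forward strand) are shown because they are all that separates Tnfrsf9 from the trapped gene.
between Park7 and Tnfrsf9: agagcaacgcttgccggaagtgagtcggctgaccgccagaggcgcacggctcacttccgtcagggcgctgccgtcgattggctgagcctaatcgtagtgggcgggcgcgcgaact
In the 250 bases before the canonical start, an NF-kB-type pattern (GGG, NN, TT, N and CC in a row, N being any base), searched on both strands, occurred in 4.15% of 21618 protein-coding genes and in 2 of the 10 members, Tnfrsf9 and Cd40. Tnfrsf9 held overlapping matches between 43 and 33 bases before its start, shown in capitals within 30 bases (chr4:151012403-151012432, forward strand) that also lie in an exon of another transcript. The Cd40 match, in capitals in its 250 bases (chr2:164897294-164897543, forward strand), lay 71 to 62 bases before the start and read GGGATTTCCC on the opposite strand, the same letters as the second Tnfrsf9 match.
Tnfrsf9: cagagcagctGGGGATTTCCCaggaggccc
Cd40: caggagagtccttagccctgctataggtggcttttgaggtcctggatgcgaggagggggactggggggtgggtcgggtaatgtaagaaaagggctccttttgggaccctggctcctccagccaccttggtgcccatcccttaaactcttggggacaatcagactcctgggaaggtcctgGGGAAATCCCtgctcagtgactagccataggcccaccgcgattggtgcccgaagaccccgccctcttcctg
An interferon-response-type pattern (GAAA, NN and GAAA in a row, both strands) occurred in 3.32% of the same windows and among the members in that of Cd274 alone, 41 to 32 bases before the start, on the opposite strand (capitals; chr19:29344279-29344528, forward strand).
Cd274: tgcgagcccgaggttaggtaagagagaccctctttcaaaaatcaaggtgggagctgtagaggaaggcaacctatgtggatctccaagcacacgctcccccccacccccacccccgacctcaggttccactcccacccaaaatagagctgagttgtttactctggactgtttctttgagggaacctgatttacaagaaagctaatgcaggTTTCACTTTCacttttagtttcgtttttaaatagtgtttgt
These matches describe letters in the windows and are not evidence of binding. Sequences and positions were read from the GRCm39 genome, with transcript starts from GENCODE M39.

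Each library held between 11936364 and 22788884 counts, so that 3 counts correspond to between 0.139 and 0.256 CPM, the counts of a gene scaled to a common library size after TMM normalization. CPM values have no further correction; floors cover counting error only. Park7 ranged from 20.6 to 32.1 CPM in the 9 wildtype mice and from 0.457 to 5.38 CPM in the 10 KO mice, so every library matched its genotype label. Microglia markers were present in all 19 mice, with summed levels of 19313 to 31759 CPM at PBS and 6656 to 11318 CPM after LPS, and 9 of 9 matched genes were lower after LPS in wildtype mice. Monocyte markers rose after LPS (5 of 5 with enough counts in both treatments, in wildtype), from summed levels of 35.6 to 50.9 CPM at PBS to 241.0 to 404.1 CPM in wildtype, and from 27.9 to 62.7 to 155.4 to 396.5 CPM in KO; 4 of 8 neutrophil markers also rose in wildtype. Other lists fell after LPS. Border macrophage markers (3 of 6 lower in wildtype) went from 518.6 to 627.0 CPM to 302.0 to 518.5 CPM in wildtype and from 472.7 to 635.7 to 271.8 to 487.3 CPM in KO, and 2 of 5 endothelial markers were lower in wildtype (333.0 to 1085 CPM at PBS and 125.7 to 582.6 CPM after LPS). B cell markers (2 of 2 tested lower) went from a median sum of 224.1 CPM at PBS to 25.9 CPM after LPS in wildtype and from 235.8 to 22.5 CPM in KO, with no overlap; nearly all of these reads were of Ighm. The part of these cell types in the LPS results below, in either direction, was not tested. In 4 libraries, 1 per group, the oligodendrocyte markers summed to 6692 to 11235 CPM, against 515.2 to 3915 CPM in the other 15, and LPS-treated KO mouse 5 stood apart from the rest on the second principal component (18.8% of the variance).

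After 6 h of LPS, 6 of the 8 genes with enough counts at PBS rose and 2 fell, in wildtype and in KO mice alike. Tnfrsf9 and Pdcd1lg2 were also higher after LPS, but they passed the filter on low counts only through LPS libraries, since each had under 10 counts in all 9 PBS libraries; they had to differ, so they are left out of these counts and their LPS values are given with no test. A gene was called when the adjusted p (edgeR's quasi-likelihood test, Benjamini-Hochberg over the 18739 genes) was under 0.05 and the log2 fold change at least 0.5 in size. Over all genes tested, 18.4% were called higher in wildtype and 35.9% in either direction, and 20.1% higher and 39.1% in either direction in KO. The median log2 fold change of the 8 genes was 1.30 in wildtype and 1.30 in KO, against -0.06 and -0.01 over all genes tested. Of the 16626 genes with at least 10 counts in at least 4 libraries of each treatment, 18.5% were called higher and 17.3% lower in wildtype, and 19.9% and 18.9% in KO.

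**Figure D1:**
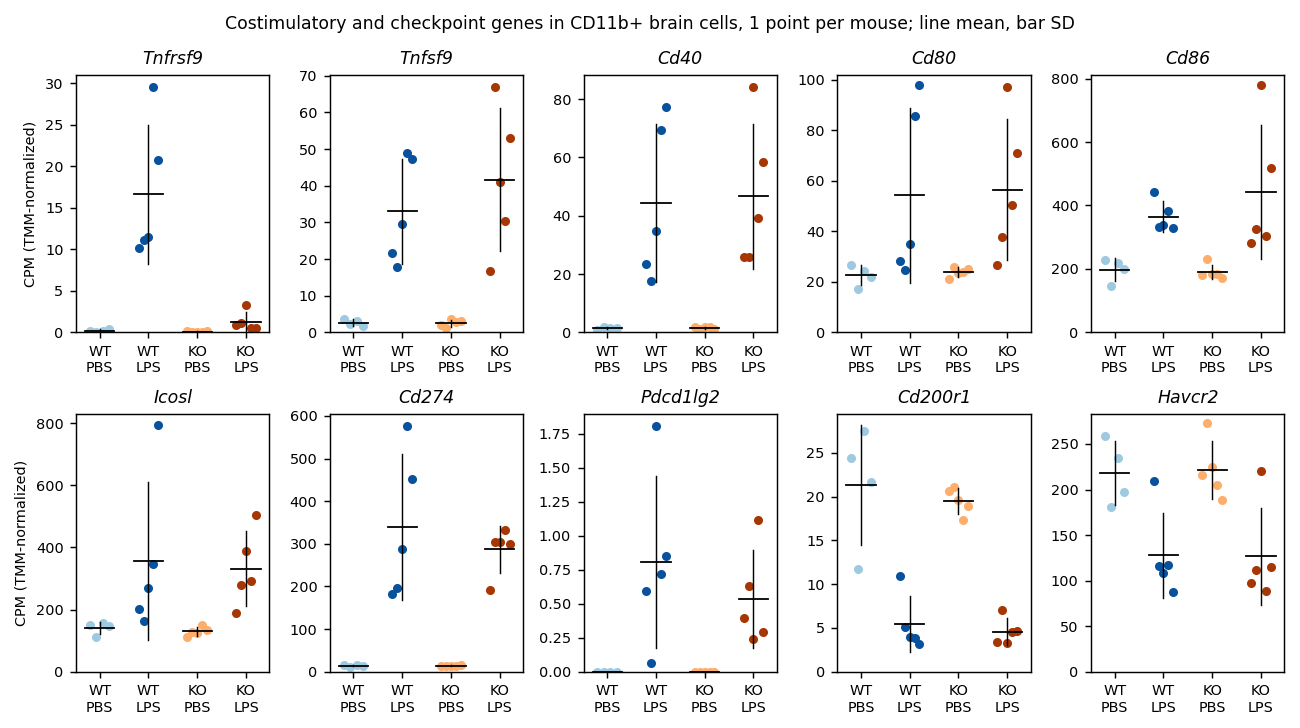
Levels of the 10 genes in CPM (linear axis from 0, each panel with its own scale), 1 point per mouse, in wildtype (WT) and KO mice given PBS or LPS; lines are means and bars SD. Tnfrsf9 in the 5 LPS-treated KO mice (0.559 to 3.35 CPM) lies below all 5 LPS-treated wildtype mice (10.1 to 29.6 CPM), while in each of the other 9 panels both genotypes overlap.

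Tnfrsf9 was nearly undetected at PBS. In the 4 wildtype mice given PBS it had 3, 1, 3 and 7 counts (0.156, 0.0606, 0.197 and 0.435 CPM), and in the 5 KO mice given PBS 2, 0, 0, 1 and 2 counts (0.123, 0, 0, 0.0524 and 0.108 CPM), values at or near the floor of 3 counts. After LPS it reached 10.1, 11.2, 11.5, 29.6 and 20.7 CPM in wildtype and 0.844, 1.14, 3.35, 0.559 and 0.577 CPM in KO mice. All 5 LPS-treated mice of each genotype lay above all PBS mice of that genotype, and mouse 3 was the highest of the KO mice. No fold of LPS over PBS is given, because the PBS levels lie at or under the floor in most of these mice, and with only the KO groups in the fit the gene did not pass the filter on low counts.

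Between the genotypes after LPS, the mean level of Tnfrsf9 was 16.6 ± 8.41 CPM (SD, n = 5) in wildtype and 1.29 ± 1.17 CPM (SD, n = 5) in KO, a ratio of means of 12.8 and a log2 fold change of KO over wildtype of -3.67. The 5 KO mice all lay below the 5 wildtype mice, and the estimate ranged from -4.39 to -3.36 over 16 alternative settings. Of all genes, 1.31% were called in this contrast, at unadjusted p under 0.05 and a log2 fold change of at least 0.5 in size. In 0.219% of all genes the groups did not overlap. Tnfrsf9 was listed for this contrast, so its range over settings and its lack of overlap are description and not support.

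At PBS, where the mice are other animals, the Tnfrsf9 values of KO and wildtype overlapped. With at most 7 counts in any of these libraries, and means at or near the floor of 3 counts, no fold or call is given.

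Since 4-1BB is best known from activated T cells and NK cells, markers of both were read beside it. T cell markers were low in every group: Cd3e had at most 2 counts in any library, 6 of the 10 listed genes never exceeded 3 counts, none was at 0 in all 19, and the summed level after LPS was 1.19 to 3.45 CPM in wildtype and 1.26 to 2.99 CPM in KO, against 0.621 to 2.36 and 0.416 to 1.35 CPM at PBS. Lck, a kinase of T cell receptor signalling and the 1 listed gene tested, rose after LPS in wildtype, from 7 to 21 counts per library at PBS to 14 to 38. NK cell markers (8 of 8 matched, none at 0 in all libraries) summed to 3.33 to 12.9 CPM in wildtype and 1.41 to 6.26 CPM in KO after LPS, and to 4.72 to 7.09 and 2.72 to 5.03 CPM at PBS. Of the 5 NK genes that passed the filter, Prf1 (perforin) had 11 to 82 counts in wildtype and 3 to 28 in KO after LPS. Gzma had 11 to 98 and 6 to 45, Ncr1 4 to 19 and 0 to 11, and Nkg7 1 to 19 and 0 to 11. Klrd1 went the other way, with 1 to 5 and 5 to 10. These are few counts, and no call is given for them. Their part in the Tnfrsf9 difference was not tested. Mast cell markers, none of which passed the filter on low counts, summed to at most 0.921 CPM in wildtype and 1.24 CPM in KO after LPS.

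The genes around Tnfrsf9 were read in the same contrasts. Within 500 kb of its start, 5 tested genes besides Park7 and Tnfrsf9 had log2 fold changes of KO over wildtype between -0.23 and 0.74 after LPS, and 0 of 5 passed the unadjusted threshold. At PBS 1 of the 5 passed it, Errfi1, a feedback inhibitor of EGF receptor signalling, which was higher in KO by 0.51 (SE 0.169, adjusted p = 1.00, edgeR). Within 2 Mb, 0 of 45 genes passed after LPS and 3 of 45 (6.67%) at PBS, against 1.31% and 0.800% of all genes. Park7 itself was lower in KO by a log2 fold change of -2.88 after LPS (adjusted p = 0.00679, edgeR) and -3.74 at PBS (adjusted p = 0.000389, edgeR). In KO mice its residual level was higher after LPS than at PBS by 1.04 (adjusted p = 0.0296, edgeR), with groups that overlapped.

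**Figure D2:**
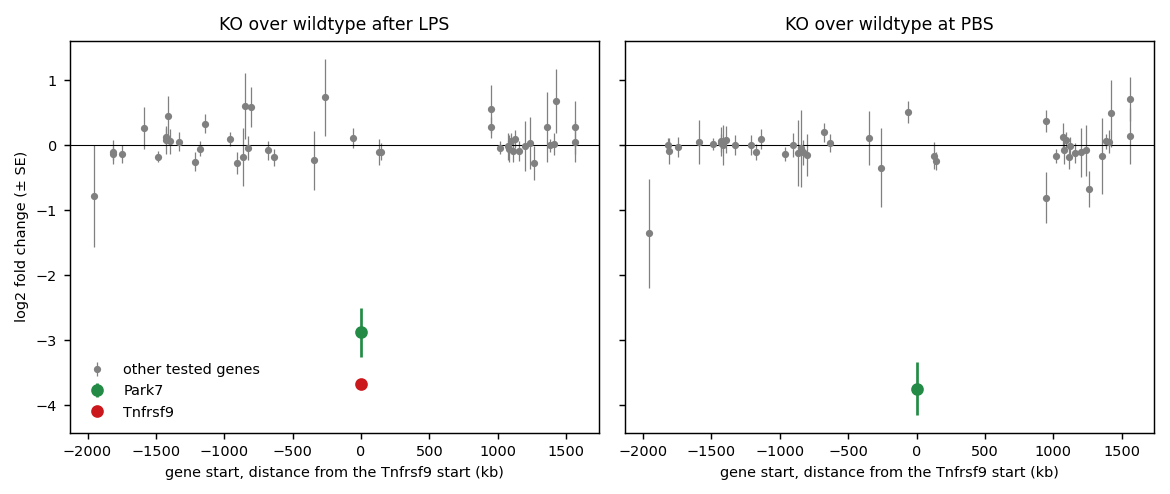
Log2 fold change of KO over wildtype (vertical axis) for each tested gene against the distance of its start from the Tnfrsf9 start in kb, after LPS (left) and at PBS (right). Bars are SE, none is drawn for Tnfrsf9 after LPS, Tnfrsf9 is left out at PBS for its few counts, and after LPS Park7 (-2.88) and Tnfrsf9 (-3.67) lie far below the other genes, which range from -0.78 to 0.74.

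Tnfsf9 (ENSMUSG00000035678, chromosome 17 at 57412298 to 57414769), the ligand of 4-1BB, rose from 1.68 to 3.70 CPM in wildtype and 1.15 to 3.61 CPM in KO at PBS to 17.9 to 48.8 CPM in wildtype and 16.9 to 67.0 CPM in KO after LPS. The LPS groups lay wholly above the PBS groups in both genotypes, with log2 fold changes of 3.62 (SE 0.442, adjusted p = 2.33e-06, edgeR) in wildtype and 4.04 (SE 0.409, adjusted p = 1.89e-07, edgeR) in KO. Unlike those of its receptor, the Tnfsf9 values of KO and wildtype mice overlapped after LPS, with a log2 fold change of KO over wildtype of 0.33 (95% interval -0.41 to 1.08).

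Cd40 (ENSMUSG00000017652, chromosome 2 at 164897544 to 164914868), the receptor through which helper T cells license antigen-presenting cells, was low at PBS, with 0.938, 2.00, 1.38 and 1.61 CPM in wildtype and 1.84, 1.29, 1.78, 1.99 and 1.13 CPM in KO. After LPS it had 23.4, 17.6, 34.6, 69.3 and 77.2 CPM in wildtype and 25.8, 25.8, 84.2, 39.2 and 58.4 CPM in KO. The lowest LPS-treated mouse lay far above the highest PBS mouse in both genotypes, while the LPS-treated mice of a group differed severalfold among themselves. Cd40 had a log2 fold change of 4.90 (SE 0.512, adjusted p = 3.61e-07, edgeR) in wildtype and 4.86 (SE 0.459, adjusted p = 8.11e-08, edgeR) in KO.

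The B7 ligands of CD28 and CTLA-4 moved less. Cd80 (ENSMUSG00000075122, chromosome 16 at 38275923 to 38316697) had 26.5, 17.3, 24.3 and 22.0 CPM in wildtype and 21.0, 26.1, 23.6, 23.9 and 24.9 CPM in KO mice at PBS. After LPS it had 28.1, 24.7, 35.0, 85.5 and 98.1 CPM in wildtype and 26.6, 37.7, 97.2, 50.3 and 71.0 CPM in KO. In wildtype, mice 1 and 2 stayed within or just above the PBS range and mice 4 and 5 carried most of the rise, so that the groups overlapped; in KO they did not. Cd80 had a log2 fold change of 1.27 (SE 0.395, adjusted p = 0.0144, edgeR) in wildtype and 1.24 (SE 0.366, adjusted p = 0.00898, edgeR) in KO. Without LPS-treated wildtype mouse 5 the wildtype call was lost (0.94, adjusted p = 0.0547, edgeR).

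Cd86 (ENSMUSG00000022901, chromosome 16 at 36424044 to 36486443, reverse strand), the more abundant ligand of the pair, rose from 145.0 to 227.9 CPM at PBS to 330.0 to 442.5 CPM after LPS in wildtype, and from 172.5 to 229.9 CPM to 282.8 to 780.9 CPM in KO. The groups did not overlap in either genotype, and the log2 fold changes were 0.88 (SE 0.242, adjusted p = 0.00617, edgeR) in wildtype and 1.22 (SE 0.227, adjusted p = 0.000200, edgeR) in KO. The ratio of Cd80 to Cd86 within a library, which does not depend on library scaling, had a log2 value of -3.12 ± 0.0584 (SD, n = 4) at PBS and -2.98 ± 0.979 (SD, n = 5) after LPS in wildtype. The mean hardly moved, but its spread between mice was far wider after LPS, from -3.97 in mouse 1 to -1.75 in mouse 5. The difference of 0.15 had an exact two-sided permutation p of 0.746, and the KO difference of -0.01 a p of 0.952 by the same exact test (-2.98 ± 0.142 at PBS and -2.99 ± 0.298 after LPS, n = 5 each).

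Icosl (ENSMUSG00000000732, chromosome 10 at 77905136 to 77919747), the ligand of ICOS, rose from 112.3 to 155.6 CPM at PBS to 201.0, 164.7, 270.8, 347.8 and 795.5 CPM after LPS in wildtype. In KO it rose from 112.1 to 150.6 CPM to 189.7, 280.5, 390.2, 292.4 and 505.6 CPM. The groups did not overlap, and mouse 5 was the highest of the LPS-treated mice in each genotype. The log2 fold change was 1.33 (SE 0.359, adjusted p = 0.00530, edgeR) in wildtype, 0.80 without LPS-treated wildtype mouse 5 (adjusted p = 0.0162, edgeR), and 1.35 (SE 0.333, adjusted p = 0.00246, edgeR) in KO.

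The ligands of PD-1 lie beside each other on chromosome 19, 22.8 kb apart, and differed widely in level. Cd274 (ENSMUSG00000016496, 29344529 to 29365495), which encodes PD-L1, was at 14.4 ± 1.85 CPM (SD, n = 4) in wildtype and 14.0 ± 1.84 CPM (SD, n = 5) in KO mice at PBS, and at most at 16.8 CPM in any of them. After LPS it had 183.3, 196.8, 288.5, 576.6 and 450.9 CPM in wildtype and 191.7, 304.0, 304.2, 332.5 and 300.6 CPM in KO. Every LPS-treated mouse lay well above every PBS mouse, and the 5 wildtype mice spread more widely than the KO mice, of which mouse 1 was the lowest. Cd274 had a log2 fold change of 4.56 (SE 0.318, adjusted p = 4.15e-09, edgeR) in wildtype and 4.35 (SE 0.286, adjusted p = 1.14e-09, edgeR) in KO.

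Pdcd1lg2 (ENSMUSG00000016498, 29388319 to 29448882), which encodes PD-L2, had 0 counts in all 9 PBS libraries. After LPS it had 10, 1, 30, 11 and 10 counts in wildtype (0.596, 0.0658, 1.81, 0.715 and 0.853 CPM) and 7, 11, 4, 20 and 4 counts in KO (0.394, 0.629, 0.239, 1.12 and 0.289 CPM). The reads were few but present in each of the 10 LPS-treated mice. The LPS means were 0.807 CPM in wildtype and 0.534 CPM in KO. At PBS the highest per-library floor of 3 counts was 0.197 CPM in wildtype and 0.184 CPM in KO. LPS-treated wildtype mouse 2 lay under that floor, and no fold of LPS over PBS is given, as for Tnfrsf9. A930007I19Rik, annotated across Pdcd1lg2 on the opposite strand, had 129 to 453 counts per library, also in those where Pdcd1lg2 was at 0. Opposite-strand genes with counts also overlap Tnfsf9 (Gm11110, 0 to 19 counts), Cd80 (Timmdc1, 124 to 340) and Cd274 (Plgrkt, 345 to 1183, and Gm36043, 0 to 10); the libraries were stranded but the strand setting of the counting is not given in the sources used here.

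The members that fell were inhibitory receptors of myeloid cells. Cd200r1 (ENSMUSG00000022667, chromosome 16 at 44586096 to 44615343), the receptor through which neuronal CD200 restrains microglia, fell from 24.4, 11.8, 27.5 and 21.7 CPM to 11.0, 5.13, 3.97, 3.90 and 3.16 CPM in wildtype. In KO it fell from 20.6, 21.2, 19.7, 17.4 and 18.96 CPM to 3.37, 7.03, 3.23, 4.59 and 4.69 CPM. Groups did not overlap, although LPS-treated wildtype mouse 1 came close to PBS-treated wildtype mouse 2. The log2 fold change was -1.97 (SE 0.322, adjusted p = 6.09e-05, edgeR) in wildtype and -2.09 (SE 0.312, adjusted p = 1.85e-05, edgeR) in KO.

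Havcr2 (ENSMUSG00000020399, chromosome 11 at 46345673 to 46374149), which encodes TIM-3, fell from 259.0, 180.9, 234.1 and 197.4 CPM to 208.9, 116.0, 108.3, 116.9 and 88.0 CPM in wildtype, and from 215.7, 273.1, 224.4, 205.1 and 188.2 CPM to 97.4, 111.3, 220.5, 88.5 and 114.9 CPM in KO. In each genotype 1 LPS-treated mouse stayed within the PBS range, wildtype mouse 1 and KO mouse 3, so the groups overlapped. The log2 fold change was -0.77 (SE 0.250, adjusted p = 0.0181, edgeR) in wildtype and -0.81 (SE 0.238, adjusted p = 0.00910, edgeR) in KO. The wildtype call was lost without PBS-treated mouse 1 (-0.68, adjusted p = 0.0575, edgeR), without LPS-treated mouse 3 (-0.70, adjusted p = 0.0503) or without LPS-treated mouse 5 (-0.66, adjusted p = 0.0503).

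**Figure D3:**
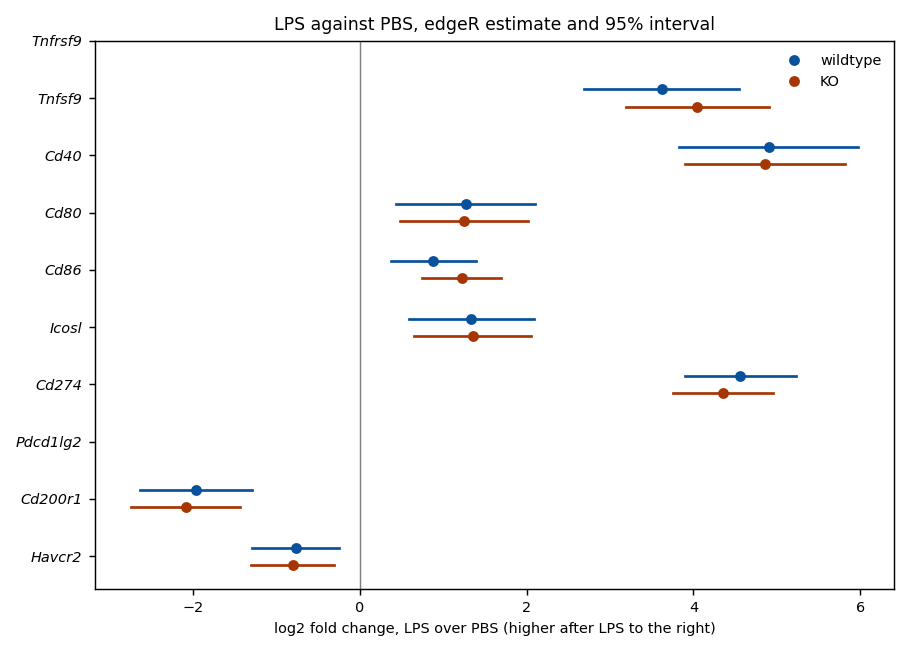
Log2 fold change of LPS over PBS (horizontal axis) with its 95% interval for 8 of the 10 genes in wildtype and KO mice; Tnfrsf9 and Pdcd1lg2 are left blank because they had under 10 counts in every PBS library. Cd40 and Cd274 lie above 4 in both genotypes, Cd80, Cd86 and Icosl near 1, and Cd200r1 and Havcr2 below 0.

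Counting the groups that did not overlap gives a description without a model. Of the 8 members with enough counts at PBS, 5 lay wholly higher after LPS in wildtype and 1 wholly lower, against 20.8% and 17.0% of all genes tested, and in KO 6 and 1, against 16.2% and 16.6%. Per kb of exon, the order of the mean levels changed with LPS. At PBS in wildtype, Cd86 (51.5 CPM per kb), Havcr2 (44.7) and Icosl (30.5) led, far above Cd200r1 (6.37), Cd80 (5.46), Cd274 (3.52) and Tnfsf9 (2.01), and Cd40 (0.435) and Tnfrsf9 (0.0780) were last of the detected genes. After LPS in wildtype, Cd86 (94.8), Cd274 (83.1) and Icosl (77.0) lay close together, with mice that overlapped, and Havcr2 (26.2) and Tnfsf9 (24.9) followed. Cd80 (13.1) and Cd40 (13.03) overlapped across mice, Tnfrsf9 was at 6.11, and Cd200r1 (1.62) and Pdcd1lg2 (0.354) came last. In KO mice after LPS the order was much the same at the top (Cd86 114.9, Icosl 71.8, Cd274 70.2) but Tnfrsf9, at 0.476 CPM per kb, lay below Cd200r1 (1.37).

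Beyond Tnfrsf9, 0 of the other 9 members differed between KO and wildtype at the unadjusted threshold after LPS, where 1.31% of all genes were called, and 0 of the 8 with counts did at PBS, where 0.800% were. The genotypes overlapped in each of these comparisons, where 0.219% of all genes after LPS and 0.971% at PBS did not. After LPS the log2 fold changes of KO over wildtype ran from -0.58 (Pdcd1lg2, 95% interval -2.01 to 0.84) to 0.33 (Tnfsf9). The intervals were -0.72 to 0.87 for Cd40, -0.69 to 0.81 for Cd80, -0.19 to 0.75 for Cd86, -0.79 to 0.58 for Icosl, -0.76 to 0.28 for Cd274, -0.89 to 0.40 for Cd200r1 and -0.51 to 0.48 for Havcr2. These widths leave room for differences below about 1 log2 unit in most members, so a missing call does not show equal levels. At PBS the 8 of these genes with counts had log2 fold changes between -0.13 and 0.12. The LPS response itself, tested as an interaction of genotype and LPS, differed in 0 of the 8 members that had counts at PBS and in 0 of 18739 genes at an adjusted p under 0.05 (edgeR); 0.961% of all genes had an unadjusted p under 0.05 and none of the 8 members did; Tnfrsf9 and Pdcd1lg2, with too few counts at PBS, are not counted.

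**Figure D4:**
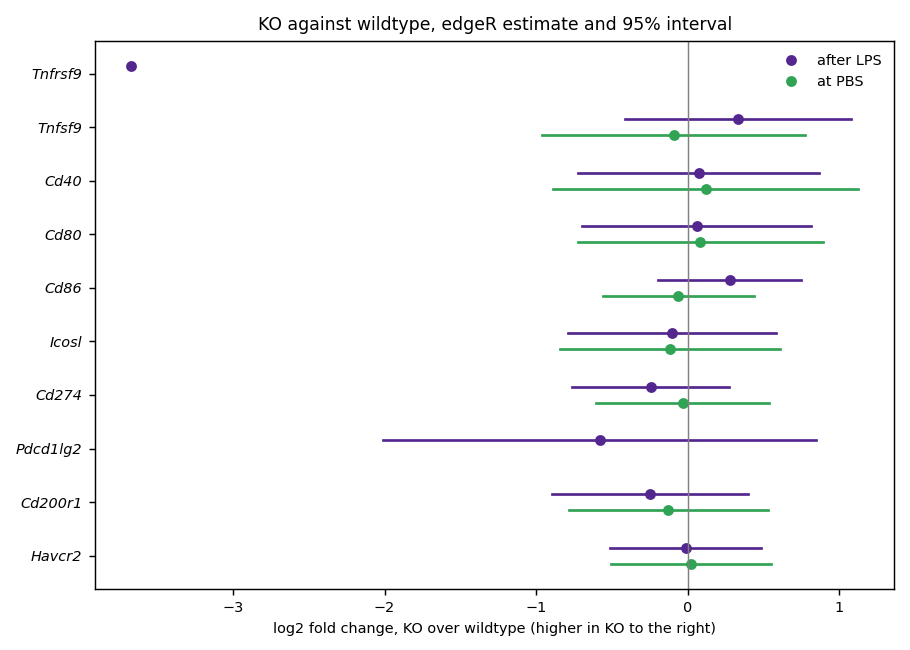
Log2 fold change of KO over wildtype (horizontal axis) after LPS and at PBS; bars are 95% intervals, none is drawn for Tnfrsf9 after LPS, and Tnfrsf9 and Pdcd1lg2 at PBS are blank because their counts were at or under 7. Apart from the Tnfrsf9 point after LPS (-3.67), every interval spans 0.

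LPS-treated mice differed from each other in several members at once. Over the 10 LPS-treated mice, correlations of log2 CPM were computed for the 36 pairs of the 9 members other than Tnfrsf9, after their values had been seen, with 100000 permutations; 4 pairs had an adjusted p under 0.05 over the 36 pairs for both coefficients. Cd40 and Cd80 were the closest pair, with Pearson's r = 0.978 (permutation p = 2e-05, adjusted 0.00072) and Spearman's rho = 0.927 (permutation p = 0.00035, adjusted 0.0063), and r was 0.961 without the mice farthest from the Cd40 median. Cd80 and Icosl had r = 0.887 (permutation p = 0.0001, adjusted 0.0018) and rho = 0.964 (permutation p = 5e-05, adjusted 0.0018), with 0.900 on leaving out the farthest mice. Cd40 and Icosl had r = 0.863 (permutation p = 0.00077, adjusted 0.00924) and rho = 0.879 (permutation p = 0.00165, adjusted 0.0198), then 0.882, and Cd80 and Cd274 r = 0.822 (permutation p = 0.00289, adjusted 0.0260) and rho = 0.842 (permutation p = 0.00382, adjusted 0.0344), then 0.889. Of the dendritic cell markers (8 of 8 matched), 5 had enough counts in both treatments, of which 0 rose and 3 fell in wildtype after LPS, and the list summed to 376.6 to 1412 CPM in wildtype and 593.7 to 1092 CPM in KO after LPS, against 437.9 to 578.7 and 393.8 to 608.4 CPM at PBS. Most of this sum was Fscn1, at 332.4 to 1186 CPM in wildtype and 514.9 to 903.6 CPM in KO after LPS. In wildtype, 18.5% of all genes with enough counts in both treatments rose and 17.3% fell. Ccr7, a receptor for migration to lymph nodes that other activated myeloid cells also carry, is named here after its values were seen and, low at PBS, has no test; it ranged from 15.3 to 199.2 CPM in wildtype and from 21.9 to 151.7 CPM in KO after LPS, against at most 1.03 CPM at PBS. The part of these cells in the correlations was not tested, and the correlations were not tested within genotypes.

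**Figure D5:**
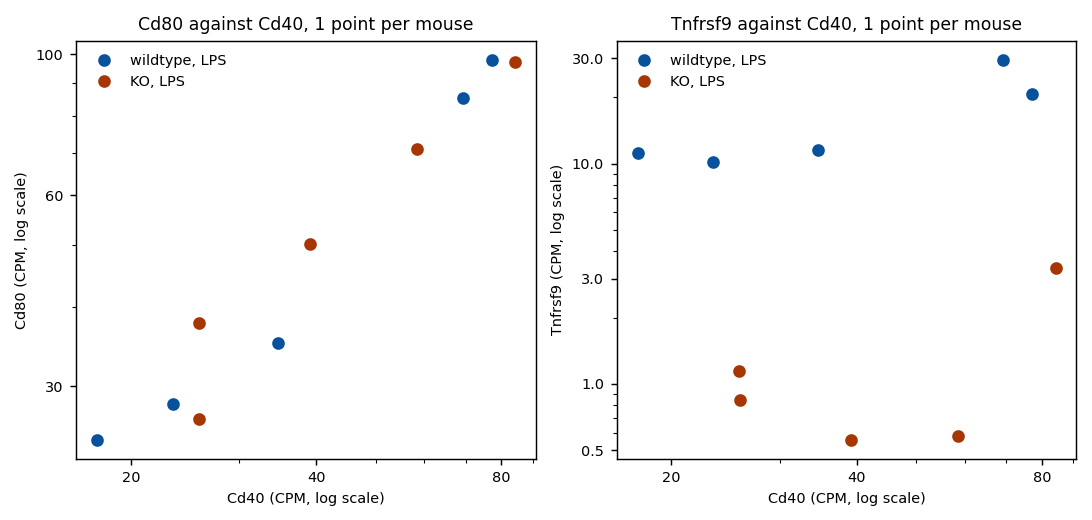
Cd80 (left) and Tnfrsf9 (right) against Cd40 in the 10 LPS-treated mice, 1 point per mouse, in CPM on log scales. Over the 10 mice together, Cd80 follows Cd40 (r = 0.978). Tnfrsf9 lies at 0.559 to 3.35 CPM in KO and 10.1 to 29.6 CPM in wildtype, and its relation to Cd40 was not tested.

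Over all 19 mice, the genes whose log2 CPM followed Tnfrsf9 most closely by Spearman's rho were Ffar2 (0.936), a receptor for short-chain fatty acids, H2-T10 (0.931), an MHC class I-like gene, Irf7 (0.922), an interferon regulatory factor, Ms4a8a (0.918) and Sp100 (0.912), a nuclear body protein. Ffar2 had 0 to 0.328 CPM at PBS, 1.18 to 3.12 CPM after LPS in wildtype and 0.225 to 1.50 CPM after LPS in KO, so that its genotypes overlapped. In H2-T10 they did not overlap after LPS, at 3.75 to 5.40 CPM in wildtype and 3.02 to 3.54 CPM in KO. This lack of overlap held for 0.219% of all genes. The genotypes of Irf7, Ms4a8a and Sp100 did overlap. These 5 genes were picked for following Tnfrsf9, which was listed for its genotype difference after LPS. Such a separation is partly built into that choice and is no support. Among the members Cd274 was closest (rho = 0.821), at rank 308 of the genes tested, and Cd200r1 was the most opposed (rho = -0.727). These coefficients describe mice that share treatment and genotype.

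Other genes of the same pathways were counted from lists. Genes with at least 10 counts in fewer than 4 libraries of either treatment are left out of these counts, for the reason given for Tnfrsf9 and Pdcd1lg2. Of all genes with enough counts in both treatments, 18.5% were called higher and 17.3% lower in wildtype. In KO these shares were 19.9% and 18.9%. Of 13 other genes of the costimulatory TNF family, 8 passed the filter on low counts and 4 had enough counts in both treatments; 0 of these 4 rose and 1 fell in wildtype after LPS, and 1 rose and 1 fell in KO. The genes with the smallest p-values in the list were among those left out and are given by their levels in wildtype. Tnfsf15, whose product TL1A binds DR3, had a mean of 0.0261 CPM at PBS and 1.06 CPM after LPS. Tnfsf14, which encodes LIGHT, had 0.261 and 1.14 CPM, and Tnfrsf8, which encodes CD30, 0.390 and 2.10 CPM. These genes passed the filter through LPS libraries and had to be higher there. Tnfsf18, also left out, passed through PBS libraries and went the other way, with 1.12 and 0.270 CPM. Cd40lg, the partner of CD40, had 0 counts in all 19 libraries, which allows up to 0.256 CPM, and Tnfsf4, Tnfrsf18, Cd27 and Cd70 had at most 6 counts in any library.

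Of 8 listed genes of the rest of the B7 and CD28 family, 6 passed the filter and 3 had enough counts in both treatments (Vsir, Pdcd1 and Cd276); 0 of the 3 rose and 3 fell in wildtype, and 0 rose and 2 fell in KO. Vsir, which encodes the checkpoint molecule VISTA, fell from 2617 ± 351.5 to 694.8 ± 392.9 CPM (SD, n = 4 and 5; log2 fold change -1.91, adjusted p = 5.06e-05, edgeR). Cd28 and Icos, receptors for ligands among the members, passed the filter only through PBS libraries and are given by their levels: means of 4.31 and 1.93 CPM at PBS in wildtype and of 0.138 and 0.228 CPM after LPS, the latter at or under the floor of 3 counts. The B cell markers fell in the same mice, as given above, while the summed T cell markers, low in all groups, had higher medians after LPS (2.39 against 0.877 CPM in wildtype and 2.53 against 0.995 CPM in KO); the part of either in these values was not tested. Pdcd1, which encodes PD-1 and is named here after its values were seen, fell from 2.21 to 0.499 CPM (log2 fold change -2.11, adjusted p = 0.00236, edgeR). After LPS 1 of the 6 genes that passed the filter, Cd276, was higher in KO than in wildtype at the unadjusted threshold. Also named after its values were seen, Cd276 had 35.9 ± 33.8 against 20.4 ± 2.29 CPM (SD, n = 5 each, adjusted p = 1.00, edgeR). The KO SD was nearly as large as the mean, and Cd276 ran from 200 to 1593 counts over the LPS libraries. A single KO library may therefore carry this difference, which was not tested.

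Of 12 other checkpoint receptors and ligands with enough counts in both treatments (18 listed), 4 rose and 3 fell in wildtype and 5 rose and 4 fell in KO. Cd244a, which encodes the SLAM family receptor 2B4 (4.98, adjusted p = 3.12e-10), and Pvr, a ligand of TIGIT and CD226 (1.81, adjusted p = 5.33e-08), rose, and Sirpa, the receptor for CD47 (-2.05, adjusted p = 1.43e-07, edgeR throughout), fell. Of the 5 TRAF adaptors, which carry signals from receptors such as 4-1BB and CD40, 3 rose and 1 fell in wildtype and 4 rose and 1 fell in KO. Traf1 rose by 4.53 (adjusted p = 1.37e-07) and Traf3 by 1.14 (adjusted p = 1.45e-06, edgeR), while Traf2, at 0.45 (adjusted p = 0.00757), stayed under the fold threshold. None of the genes of these lists other than Cd276 passed the threshold between KO and wildtype after LPS.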

How the data were processed

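RNA of CD11b+ cells from 19 mice was sequenced as paired reads of 75 bp after stranded total RNA library preparation with ribosomal depletion. Per the labels and the study's methods, the authors trimmed reads with Cutadapt, aligned them to GRCm39 (Ensembl release 108) with STAR 2.7.9a and deposited raw counts per gene, not normalized, for 56980 Ensembl genes; the strand setting of the counting is not given in the sources used here. Depth was 11936364 to 22788884 counts per library. Groups came from the sample labels, and each library is 1 mouse, so p-values reflect the spread between mice.

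Symbols were taken from GENCODE M39 (56236 genes matched). In R 4.3.3, edgeR 4.0.16 was used with filterByExpr (minimum count 10, minimum total 15; 18739 genes kept), TMM factors and glmQLFit and glmQLFTest on 4 groups in 1 fit; p-values were adjusted by Benjamini-Hochberg. LPS responses were called at an adjusted p under 0.05 and genotype differences at an unadjusted p under 0.05, both with an absolute log2 fold change of at least 0.5, as the study did. The method was checked on simulated counts. The ratio of Cd80 to Cd86 was tested with an exact permutation test (prior count 2). Within every group each pair of libraries differed beyond sampling noise.

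The 10 members and all lists were chosen with earlier results of these data known. Besides them, the text names Park7 and the 3 genes per list with the smallest p in wildtype LPS against PBS. It also names the 5 genes most correlated with Tnfrsf9 and the called genes within 500 kb of it. The named cell type markers, the genes too low to test, Pdcd1, Cd276 and Tnfsf18 lie outside this rule. They were named after their values were seen. Genes that passed the filter through 1 treatment only (at least 10 counts in fewer than 4 libraries of the other) were given no call for LPS. Alternatives were DESeq2 1.42.0, its size factors, no filter, another prior count, only the groups compared, replicate numbers as a block and leaving out each library.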

Additional observations from a re-analysis of the deposited data

Results flagged for a closer look

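In 3 of 38 sets of member levels within a group, 1 mouse stood apart by Dixon's criterion at the 95% level; chance gives about 1 in 20. Cd86 in PBS-treated KO mouse 2 was at 229.9 CPM, with the other mice of that group at 172.5 to 183.5 CPM. Cd274 in LPS-treated KO mouse 1 was at 191.7 CPM, with the others at 300.6 to 332.5 CPM. Havcr2 in LPS-treated KO mouse 3 was at 220.5 CPM, with the others at 88.5 to 114.9 CPM. The 2 sets in which Pdcd1lg2 was at 0 in every mouse were left out.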

How the results depend on the processing

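Of the values of single members under the alternatives, 805 kept their direction and side of the threshold or were not called in either, 5 passed it newly (Tnfrsf9 at PBS) and 4 no longer did (Cd80 once and Havcr2 3 times, wildtype, each on leaving out 1 library); the cause was not tested. Tnfrsf9 had too few counts at PBS for its calls there to support anything. The 805 also take in Tnfrsf9 between genotypes after LPS and in the interaction, and Tnfrsf9 and Pdcd1lg2 in LPS against PBS. Those values depend on how Tnfrsf9 was listed or on the filter, so that they stayed the same is a description only. Members called lower at PBS thus came to 1 instead of 0 without the filter on low counts, with DESeq2 and without the 4 libraries richest in oligodendrocyte RNA, and to 0 to 1 on leaving out each library; members called lower after LPS in wildtype came to 1 to 2.

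Counts over all genes moved more. After LPS, KO against wildtype gave 102 genes higher and 143 lower; these were 0 and 2 at an adjusted p under 0.05, 347 and 507 without the filter, 36 and 69 with only the 2 groups compared, and 100 to 204 and 105 to 270 on leaving out each library (highest without KO mouse 1 and KO mouse 5). At PBS 150 genes were called, 42 of them higher; higher and lower genes came to 0 and 1 at an adjusted p under 0.05, 241 and 439 without the filter, 30 to 94 and 67 to 153 on leaving out each library, and 80 higher without the oligodendrocyte-rich libraries, an alternative added after the data were seen. Genes called around Tnfrsf9 at PBS were 1 within 500 kb and 3 within 2 Mb.

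The ratio of Cd80 to Cd86 (0.15 in wildtype, -0.01 in KO) changed sign without passing the threshold: -0.16 when mice of the same replicate number formed a block in wildtype, where the smallest p possible is 0.125, and on leaving out each library -0.16 to 0.40 in wildtype (-0.06 without LPS mouse 4, -0.16 without LPS mouse 5) and -0.11 to 0.0899 in KO (0.0899, 0.0146 and 0.0363 without LPS mouse 1, LPS mouse 2 and PBS mouse 5).

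Same-numbered mice did not deviate together throughout (correlations of -0.573 to 0.300 between genotypes after LPS, -0.290 to 0.299 between them at PBS, -0.0418 to 0.576 between treatments in wildtype and 0.0265 to 0.544, all above 0, between treatments in KO). In no comparison were all above 0.1, so the numbers were not taken to pair the mice; with such a replicate block, 189 genes were lower in KO at PBS, and the calls of the members did not change. The ratio of Cd274 to Pdcd1lg2 and its alternatives were not run, because Pdcd1lg2 had 0 counts at PBS and the ratio would be set by the prior count. Pdcd1lg2, and Tnfrsf9 at PBS and in LPS against PBS in KO, fell out of the filter in some fits on fewer libraries; with only the 2 groups compared, members called higher after LPS came to 7 in wildtype and 6 in KO instead of 8, a count that includes both genes. Depth limits Tnfrsf9 at PBS and Pdcd1lg2, which lie at or near 3 counts.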
